A study of Homo sapiens with 4 samples.

Results

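The genes described here are the 4 ID genes (ID1, ID2, ID3 and ID4), 5 SMAD genes of the bone morphogenetic protein (BMP) pathway (SMAD1, SMAD5, SMAD6, SMAD7 and SMAD9) and BAMBI. They were taken by name, and each of the 10 symbols matched 1 of the 57820 Ensembl genes in the count files. All 10 passed the filter on low counts and belonged to the 17785 genes tested. RNA came from A549, an epithelial-shaped human line established from a lung adenocarcinoma. There were 2 libraries of parental A549 cells and 2 of TD cells, an A549 derivative whose shape is labelled mesenchymal-like. TD cells received fresh TGF-β (transforming growth factor beta, 2 ng/ml) every 3 days, no TGF-β is named for the parental cells, and both grew in medium with 10% serum and gentamycin. The labels do not say how long TD cells had been kept in this way, nor whether TD is a clone. Separate cultures are not named for the libraries of a group, so p-values reflect only the spread among these libraries, and that spread may be technical.

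BMPs and TGF-β are related ligands that signal through separate sets of SMAD proteins. BMP receptors phosphorylate SMAD1, SMAD5 and SMAD9, which enter the nucleus with SMAD4, while TGF-β receptors mainly phosphorylate SMAD2 and SMAD3. The ID genes are the classic immediate targets of the BMP branch, and TGF-β is known to repress several of them in epithelial cells. ID proteins have a helix-loop-helix fold but no DNA-binding region, so they hold E proteins and other basic helix-loop-helix (bHLH) factors off DNA and are known to keep cells undifferentiated and dividing. SMAD6 and SMAD7 are inhibitory SMADs, which are induced by the signals they dampen, and BAMBI is a membrane pseudoreceptor that dampens TGF-β and BMP signals.

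The promoters of the 4 ID genes are shown first because their RNA changed unequally. All 10 genes had an entry in the RefSeq promoter table, which is on GRCh38.p14, while the count files are on hg19. Each line holds the 250 bases before the most upstream RefSeq start, 5′ to 3′ on the gene's strand. They lie at chr20:31605039-31605288 (plus strand, ID1), chr2:8681806-8682055 (plus, ID2), chr1:23559502-23559751 (minus, ID3) and chr6:19837120-19837369 (plus, ID4). Capitals mark the letters ATTGGCTG and a TATAA that begins 20 to 40 bases before the start.
ID1: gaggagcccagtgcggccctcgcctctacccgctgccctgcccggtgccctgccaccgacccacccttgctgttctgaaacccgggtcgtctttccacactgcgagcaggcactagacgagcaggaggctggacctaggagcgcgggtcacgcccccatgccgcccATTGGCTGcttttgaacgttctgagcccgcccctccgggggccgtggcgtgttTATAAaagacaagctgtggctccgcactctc
ID2: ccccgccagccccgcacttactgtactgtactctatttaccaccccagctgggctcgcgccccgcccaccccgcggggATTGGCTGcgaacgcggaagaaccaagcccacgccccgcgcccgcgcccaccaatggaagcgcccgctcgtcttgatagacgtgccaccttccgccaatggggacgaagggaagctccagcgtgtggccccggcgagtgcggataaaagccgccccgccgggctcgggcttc
ID3: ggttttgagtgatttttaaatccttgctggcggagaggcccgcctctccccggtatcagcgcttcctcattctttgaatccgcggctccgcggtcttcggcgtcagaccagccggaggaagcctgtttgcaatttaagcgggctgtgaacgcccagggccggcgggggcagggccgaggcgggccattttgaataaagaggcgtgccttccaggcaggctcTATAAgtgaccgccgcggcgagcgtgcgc
ID4: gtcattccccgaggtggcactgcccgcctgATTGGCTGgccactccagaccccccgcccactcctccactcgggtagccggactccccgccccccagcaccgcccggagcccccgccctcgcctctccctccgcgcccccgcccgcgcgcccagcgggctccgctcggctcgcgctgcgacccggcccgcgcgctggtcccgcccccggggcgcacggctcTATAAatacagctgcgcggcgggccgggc

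ATTGGCTG, searched on both strands, occurred before ID1, ID2 and ID4, the ID genes whose RNA was lower in TD, and not before ID3. It was also absent from the same window of the other 6 genes, among them SMAD6 and SMAD9, which were lower in TD too. ATTGGCTG holds the shorter ATTGG, which is a CCAAT box when read on the other strand. ATTGG also occurred before SMAD1 and BAMBI, whose RNA change was not called. It was not found before ID3, SMAD5, SMAD6, SMAD7 or SMAD9. Of 27305 genes with a promoter window, 3.66% held ATTGGCTG and 33% held ATTGG in these 250 bases. TATAA stood at this place on the gene's strand before ID1, ID3, ID4 and SMAD1, against 4.24% of all windows. Both motifs were chosen after the sequences and the RNA changes had been seen, so where they fall is a description and tests nothing. The windows of the ID genes had a GC content of 66% (ID1), 69.2% (ID2), 62% (ID3) and 78.8% (ID4), against a median of 57.6% over all genes. GGCGCC, a GC-rich element bound by BMP SMADs and searched on both strands like the motifs that follow, was in none of the 4 ID windows and 3 times in that of BAMBI, against 16% of all windows. Its shorter form GGCGC, which also counts each GGCGCC, was found in 6 of the 10 windows (ID2, ID4, SMAD5, SMAD6, SMAD9 and BAMBI) and in 44.2% of all. These matches describe letters in a short window and no binding was measured.

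TD cells had less RNA of 3 ID genes and of SMAD9, slightly less of SMAD6, more of SMAD7 and SMAD5, and no called change in ID3, SMAD1 or BAMBI. Of the 10, edgeR's quasi-likelihood test called 2 higher and 5 lower in TD at an adjusted p below 0.05. Over all tested genes 43.0% were called, 21.6% higher and 21.4% lower, so calls were common in this comparison. That share moved with the setting, to 60.1% with pseudogenes left out and 24.3% without the filter. In both of these settings 2 of the 10 genes were again called higher and 5 lower. The median log2 change (TD over A549) was -0.25 over the 10 genes and -0.04 over all genes. The median size of the change without its sign was 1.55 against 0.50. The 10 genes were chosen with earlier results of these data known, so these comparisons with all genes are descriptions and test nothing. The 7 called genes had no overlap between the libraries of the groups, and the other 3 did overlap. With 2 libraries per group this adds no support to the calls, since the uncalled receptors BMPR1A and BMPR1B did not overlap either. The share of such genes over all tested genes was not counted. Because RNA was taken from whole cultures, fewer cells that express a gene and less RNA per cell cannot be told apart.

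**Figure D1:**
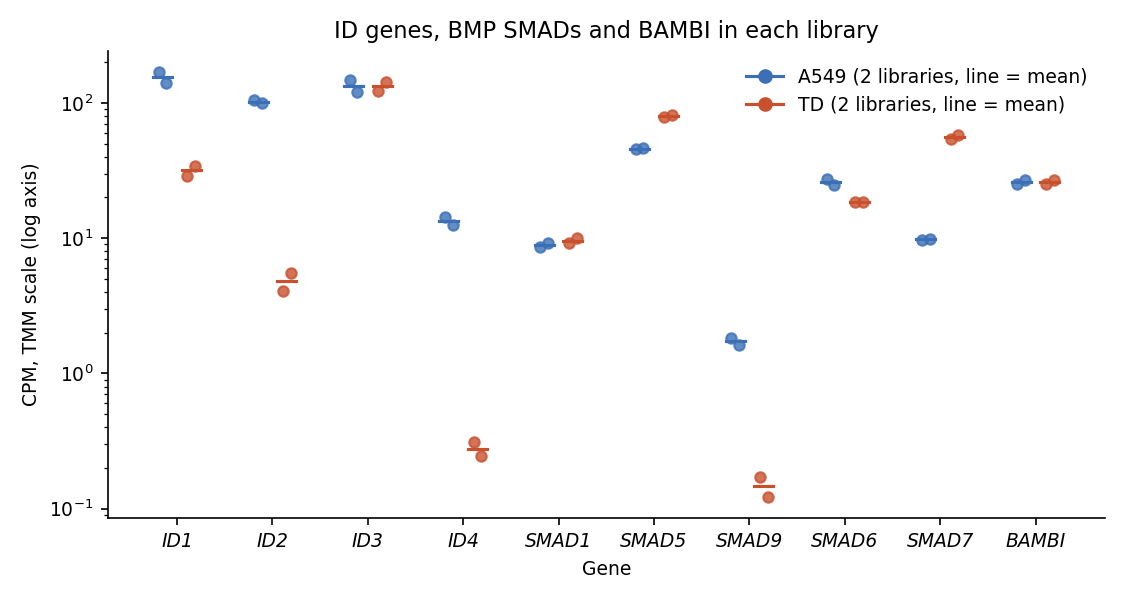
Level of each gene in every library, in CPM on the TMM scale and a log axis, with 2 libraries per group as points and their mean as a line. ID1, ID2, ID4 and SMAD9 sit lower in TD, SMAD5 and SMAD7 higher, and the points of ID3, SMAD1 and BAMBI overlap.

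ID4 had the largest change of the 10. Its level was 14.3 and 12.5 CPM in A549 and 0.310 and 0.246 CPM in TD, from 399 and 370 counts against 9 and 10. CPM here are counts brought to 1 library size by TMM, edgeR's correction for composition. The log2 change was -5.59 (standard error SE 0.21, adjusted p = 8.62e-05), and the ratio of summed counts was 49.0-fold (95% exact interval 31.2 to 81.9, counting error only). Both TD libraries remained above 0.112 CPM, the highest level that 3 counts would give in any library here, so ID4 was low but still detected.

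ID2 came next. It had 105 and 99.1 CPM in A549 and 4.07 and 5.51 CPM in TD, a log2 change of -4.40 (SE 0.17, adjusted p = 8.70e-05). Every TD library was therefore far below both parental libraries, and counts stayed at 118 and 224 in TD. GENCODE 29 lists an antisense gene, ID2-AS1, that overlaps part of the span of ID2 on the other strand. ID2-AS1 was lower as well, with 57 and 59 counts in A549 and 6 and 5 in TD (log2 change -3.61, SE 0.38, adjusted p = 0.00203). The strand setting of the counting is not given in the sources used here, so how far reads of this pair were kept apart was not tested. ID2B, a pseudogene copy of ID2, had at most 6 counts in any library and was not tested.

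ID1, the member most often used as a readout of BMP signalling, had a smaller fitted change. It had 169 and 141 CPM in A549 and 29.0 and 34.4 CPM in TD, a log2 change of -2.29 (SE 0.14, adjusted p = 0.000362). The groups stayed well apart although the parental libraries differed by more than the TD libraries did. By the distance of the 4 log2 CPM values, the tested genes most like ID1 were B4GALT4, PLCD3, CAT, SERPINB1 and SLC2A3. Their distances ran from 0.425 to 0.529, and their means from 128 to 162 CPM in A549 and from 26.9 to 38.8 CPM in TD. With only 4 libraries in 2 groups this likeness is mostly that of level and change.

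ID3 stood at 147 and 120.2 CPM in A549 and 122 and 144 CPM in TD. Its log2 change was -0.01 (SE 0.14, 95% interval -0.37 to 0.35, adjusted p = 0.970), so the libraries of the groups covered the same range. The interval leaves room for a change of about the size seen between libraries of 1 group, and it does not reach the intervals of ID1 (-2.65 to -1.92), ID2 (-4.83 to -3.98) or ID4 (-6.13 to -5.05). Within each library the same can be read without any scaling. The log2 ratio of ID3 counts to ID1 counts was -0.20 and -0.23 in the A549 libraries and 2.08 and 2.06 in the TD libraries. That of ID2 to ID1 was -0.68 and -0.51 in A549 and -2.83 and -2.64 in TD, and that of ID4 to ID1 was -3.56 and -3.50 against -6.55 and -7.13. Differences in change between genes were not tested.

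**Figure D2:**
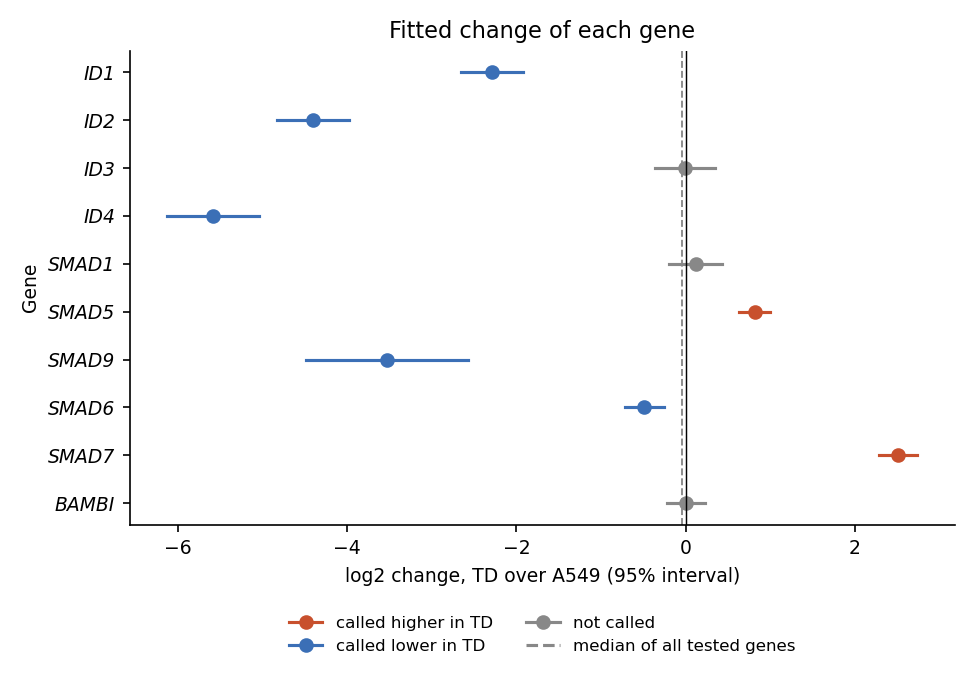
Fitted log2 change of TD over A549 for each gene, with the 95% interval of the edgeR fit as a bar, coloured by call, and the median of all tested genes as a dashed line. The intervals of ID3, SMAD1 and BAMBI include 0, and those of ID1, ID2, ID4 and SMAD9 lie below -1.9.

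These unequal changes altered which ID gene supplied most ID RNA. For levels between genes, CPM were divided by the kilobases of annotated exon of each gene (GENCODE 29, whose exons can differ from those used for counting). Summed over the 4 genes, ID RNA came to 273 and 232 CPM per kb in A549 and to 93.6 and 110.5 CPM per kb in TD. ID1 held 50.3% and 49.4% of that sum in A549 and 25.1% and 25.3% in TD. ID3 held 30.0% and 28.9% in A549 and 72.8% and 72.4% in TD, so it replaced ID1 as the most abundant ID RNA. ID2 went from 17.5% and 19.4% to 1.97% and 2.26%, and ID4 from 2.24% and 2.30% to 0.141% and 0.0950%. In CPM, without the correction for length, the sum was 2.38-fold lower in TD.

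**Figure D3:**
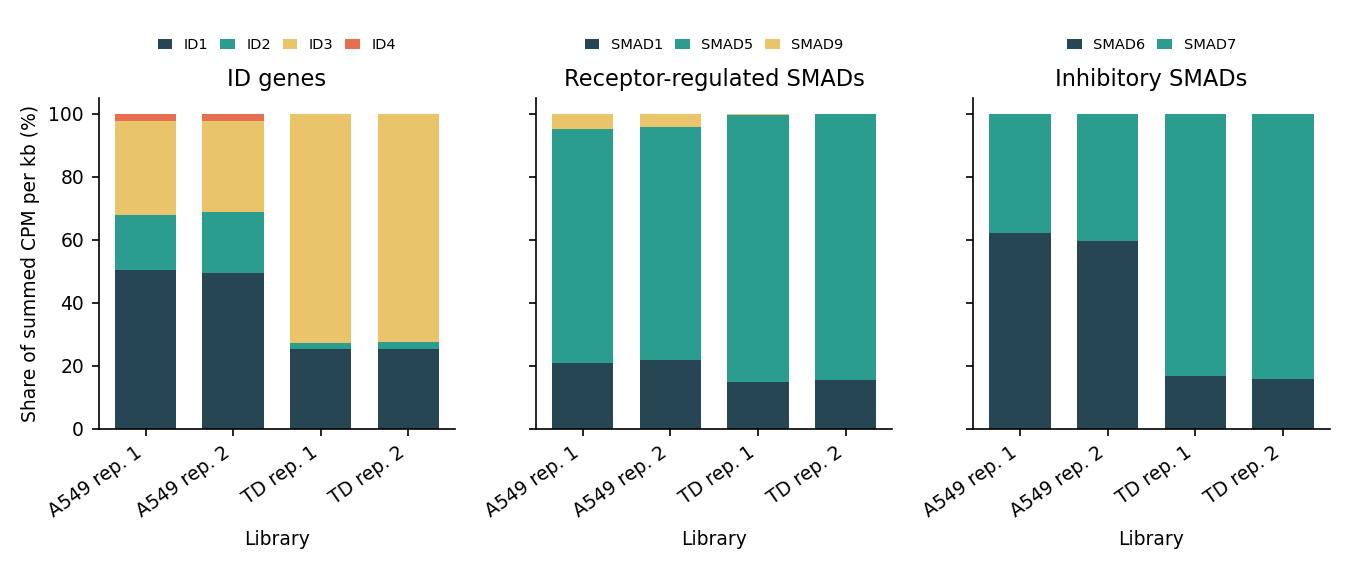
Share of each gene in the summed CPM per kb of its group of genes, in every library, for the ID genes, the receptor-regulated SMADs and the inhibitory SMADs. ID3 fills over 72% of the ID bar in both TD libraries against at most 30.0% in A549, and SMAD7 over 83% of the inhibitory bar against at most 40.4%.

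Among the receptor-regulated SMADs, SMAD5 was the most abundant in every library and the gene that rose. It had 45.3 and 46.3 CPM in A549 and 79.3 and 82.1 CPM in TD, and the log2 change was 0.82 (SE 0.07, adjusted p = 0.00109). The libraries of each group lay close together, with a wide gap between the groups. SMAD1 was not called, at 8.55 and 9.17 CPM in A549 against 9.17 and 10.1 CPM in TD (log2 change 0.12, 95% interval -0.19 to 0.43, adjusted p = 0.481). SMAD9, also known as SMAD8, had 1.83 and 1.62 CPM in A549 and 0.172 and 0.123 CPM in TD. Its log2 change was -3.53 (SE 0.37, adjusted p = 0.00199), and its 51 and 48 counts in A549 stood against 5 in each TD library. The ratio of the summed counts was 12.0-fold, with a 95% counting interval of 6.26 to 25.8, so the direction is clear and the size is not.

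Per kilobase, SMAD5 supplied 74.3% and 74.1% of the RNA of these 3 SMADs in A549 and 85.0% and 84.4% in TD. SMAD9 supplied 4.75% and 4.08% in A549 and 0.292% and 0.200% in TD. The summed level of SMAD1, SMAD5 and SMAD9 was 55.7 and 57.1 CPM in A549 and 88.6 and 92.3 CPM in TD, 1.60-fold higher. Lower ID1, ID2 and ID4 thus stood beside a higher sum of receptor-regulated BMP SMAD RNA. SMAD1-AS1, SMAD1-AS2 and SMAD5-AS1, antisense genes at these loci, had at most 5 counts in any library.

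The inhibitory SMADs went in opposite directions. SMAD7, which blocks TGF-β and BMP receptors, had 9.77 and 9.81 CPM in A549 and 53.8 and 58.2 CPM in TD, a log2 change of 2.52 (SE 0.09, adjusted p = 7.04e-05). SMAD6, which acts mainly on the BMP branch, had 27.3 and 24.6 CPM in A549 and 18.5 and 18.6 CPM in TD (log2 change -0.49, SE 0.09, adjusted p = 0.0119). The TD libraries of SMAD6 nearly coincided, and the gap to the nearest parental library was larger than the spread in either group. Without A549 replicate 1, SMAD6 was no longer called (log2 change -0.45, adjusted p = 0.0557). Per kilobase, SMAD6 was the more abundant of the pair in A549, with 62.2% and 59.6% of their sum, and SMAD7 in TD, with 83.2% and 84.2%. The log2 ratio of SMAD7 to SMAD6 counts was -1.48 and -1.33 in A549 and 1.54 and 1.65 in TD.

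The promoter of SMAD6 is shown because it was the only window among the 10 genes, to hold GTCTAGAC, the palindromic SMAD-binding element, which 0.183% of all windows held. The 100 bases before the RefSeq start of SMAD6 lie at chr15:66702136-66702235 (plus strand, GRCh38.p14), with GTCTAGAC in capitals.
SMAD6: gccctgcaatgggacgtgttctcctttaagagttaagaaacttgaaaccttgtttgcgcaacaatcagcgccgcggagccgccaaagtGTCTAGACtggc

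The element began 12 bases before that start. None of the 3 RefSeq windows of SMAD7 held it. A single SMAD box with its next base, GTCTG, occurred 2 times in the most upstream SMAD7 window, 2 times in that of BAMBI and 1 time in those of ID3 and ID4, against 37.9% of all windows. Sequence further upstream or within introns was not searched.

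BAMBI had 25.2 and 26.9 CPM in A549 and 25.3 and 27.0 CPM in TD. Its log2 change was 0.01 (SE 0.09, 95% interval -0.22 to 0.23, adjusted p = 0.969), the narrowest interval among the genes that were not called. The libraries of the groups interleaved.

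Ordered per kilobase, A549 had ID1 first with 126 ± 16.2 CPM per kb (SD, n = 2), then ID3 with 74.4 ± 10.7 and ID2 with 46.4 ± 2.02. BAMBI (11.3 ± 0.523), ID4 (5.72 ± 0.562), SMAD5 (5.07 ± 0.0815), SMAD6 (3.04 ± 0.223), SMAD7 (1.95 ± 0.00509), SMAD1 (1.46 ± 0.0721) and SMAD9 (0.301 ± 0.0265) followed. No neighbours in this order had overlapping libraries, though ID4 and SMAD5 differed by little more than the SD of ID4. In TD the order was ID3 (74.0 ± 8.38), ID1 (25.7 ± 3.12), BAMBI (11.3 ± 0.529), SMAD7 (11.1 ± 0.623), SMAD5 (8.92 ± 0.221), ID2 (2.17 ± 0.462), SMAD6 (2.17 ± 0.00703), SMAD1 (1.59 ± 0.104), ID4 (0.119 ± 0.0194) and SMAD9 (0.0258 ± 0.00610). BAMBI and SMAD7 could not be ranked against each other in TD, nor could ID2 and SMAD6.

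The labelled states were checked on marker genes. All 6 epithelial genes examined (CDH1, EPCAM, KRT8, KRT18, KRT19 and ESRP1) fell in TD, and all 6 mesenchymal genes (CDH2, VIM, FN1, SPARC, ZEB1 and SNAI2) rose, as did 5 of 5 TGF-β responsive genes. Of 5 fibroblast markers, PDGFRA, PDGFRB, DCN and THY1 had at most 7 counts in any library, DCN had 0 in TD, and LUM fell. Their summed level was 1.65 CPM in both A549 libraries and 0.482 and 0.566 CPM in TD. Of the matched blood and endothelial markers, PTPRC, CDH5 and VWF had at most 4 counts, and CD14 fell from 23 counts in each A549 library to 10 and 7 in TD. Gene counts per library ran from 26729278 to 44133836, and the libraries of a group differed by more than counting noise (chi-square per degree of freedom 8.62 in A549 and 28.2 in TD).

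Upstream of the SMADs, 4 of 10 tested BMP receptors and co-receptors rose and 1 fell. BMPR2, the type II receptor dedicated to BMPs, rose from 54.8 ± 0.306 to 206 ± 15.4 CPM, a log2 change of 1.91 (adjusted p = 0.000151). The type I receptors BMPR1A, with 37.7 ± 1.13 and 32.0 ± 1.86 CPM, and BMPR1B, with 27.8 ± 1.06 and 31.4 ± 1.76 CPM, were not called (adjusted p = 0.0776 and 0.162). BMPR1A was called lower without TD replicate 2 (adjusted p = 0.0312), with pseudogenes left out (0.0111) and on the scale of library totals (0.0177). ACVR1, another type I receptor, went from 26.6 to 34.0 CPM (log2 change 0.35, adjusted p = 0.0211), a call lost with either A549 library left out. The spread then comes only from the TD pair, which varied more, and calls were fewer over all genes too. With all 4 libraries, edgeR's coefficient of variation was 20.1%, and 7.90% when pseudogenes were left out. TGFBR3, the co-receptor betaglycan, fell from 13.6 ± 0.638 to 2.58 ± 0.346 CPM, and RGMB, a BMP co-receptor, rose from 10.7 ± 0.631 to 20.9 ± 0.264 CPM. ACVRL1 had 2 and 3 counts in A549 and 0 in TD and was not tested. The median log2 change of the 10 was 0.37. With either A549 library left out 2 were called higher, and 2 were called lower without TD replicate 2, on library totals or without pseudogenes.

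Ligands went in both directions. BMP4 fell from 27.0 ± 2.62 to 1.71 ± 0.225 CPM and BMP2 rose from 1.63 ± 0.320 to 28.5 ± 3.92 CPM, so the more abundant of these closely related ligands changed places. GDF6 had 0 counts in A549 and 1709 in TD, at least 470.1-fold higher when 3 counts over the group stand in for 0. GDF7 fell from 1.25 to 0.268 CPM, but not past the threshold once A549 replicate 1 (adjusted p = 0.0738) or 2 (0.0730) was left out. Of 8 tested ligands, 2 rose and 5 fell (median log2 change -1.29, the same with GDF6 at its bound), and 2 were called lower with either A549 library left out. The summed level of the ligand list was nonetheless 49.6 and 45.2 CPM in A549 and 54.7 and 67.1 CPM in TD.

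Most of the tested secreted antagonists and modulators were called higher. NOG, which encodes the BMP trap noggin, had 0 counts in A549 and 34 and 67 in TD, at least 27.8-fold higher. FSTL1, a secreted follistatin-like protein, rose from 58.7 ± 0.337 to 406 ± 3.12 CPM. NBL1, a secreted BMP antagonist, fell from 12.6 ± 0.422 to 6.41 ± 1.02 CPM. Of 9 tested antagonists and modulators, 7 rose and 2 fell (median log2 change 1.06, also with NOG at its bound). With either A549 library left out, 3 were called higher and 1 lower.

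The partners and regulators of the SMADs inside the cell changed in both directions. SMAD4, the partner of all receptor-regulated SMADs, went from 39.1 ± 1.62 to 49.4 ± 1.65 CPM (log2 change 0.34, adjusted p = 0.0227). That call was lost without A549 replicate 1 (0.0680) or 2 (0.0976) and on the scale of library totals (0.0546). SMAD3 fell from 186 ± 6.57 to 119 ± 5.67 CPM and SMAD2 from 114 ± 2.05 to 90.3 ± 4.38 CPM, the latter not called without A549 replicate 2 (adjusted p = 0.0626). PMEPA1, a TGF-β-induced membrane protein that sequesters SMAD2 and SMAD3, rose from 39.7 ± 2.45 to 1222 ± 105 CPM. SMURF2, a ubiquitin ligase that works with SMAD7, rose from 10.2 ± 0.287 to 66.0 ± 3.03 CPM. TOB1, known as a repressor of BMP SMAD activity, fell from 59.4 ± 5.01 to 7.76 ± 0.297 CPM, and the ubiquitin ligase NEDD4L from 40.9 ± 0.394 to 10.1 ± 0.713 CPM. Of 16 tested genes of this list, 8 rose and 6 fell (median log2 change 0.29), and 5 were called higher with either A549 library left out.

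Other genes known to respond to BMPs went in both directions. RUNX2, a bone transcription factor, rose from 0.189 ± 0.114 to 5.73 ± 0.737 CPM. Its A549 libraries held only 3 and 8 counts, and its log2 change of 4.88 became 4.35 without A549 replicate 1 and 5.66 without A549 replicate 2. HEY1, a Notch and BMP target, rose from 0.399 ± 0.0558 to 1.69 ± 0.148 CPM, a call that went when A549 replicate 1 was left out (adjusted p = 0.0608). ATOH8, a bHLH factor and BMP target, had 76 and 64 counts in A549 and 0 and 4 in TD. By summed counts it was 42.4-fold lower (95% counting interval 16.2 to 158), a size that rests on TD replicate 2. The log2 change of ATOH8 was -5.37 with all libraries and -4.57 without TD replicate 1, and without TD replicate 2 its TD count was 0. GATA2 fell from 2.82 ± 0.0780 to 1.18 ± 0.00614 CPM. Both falls lost their call without A549 replicate 1 (adjusted p = 0.0833 and 0.0738) or 2 (0.0703 and 0.0671). Of 9 tested genes, 6 rose and 2 fell (median log2 change 1.41).

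**Figure D4:**
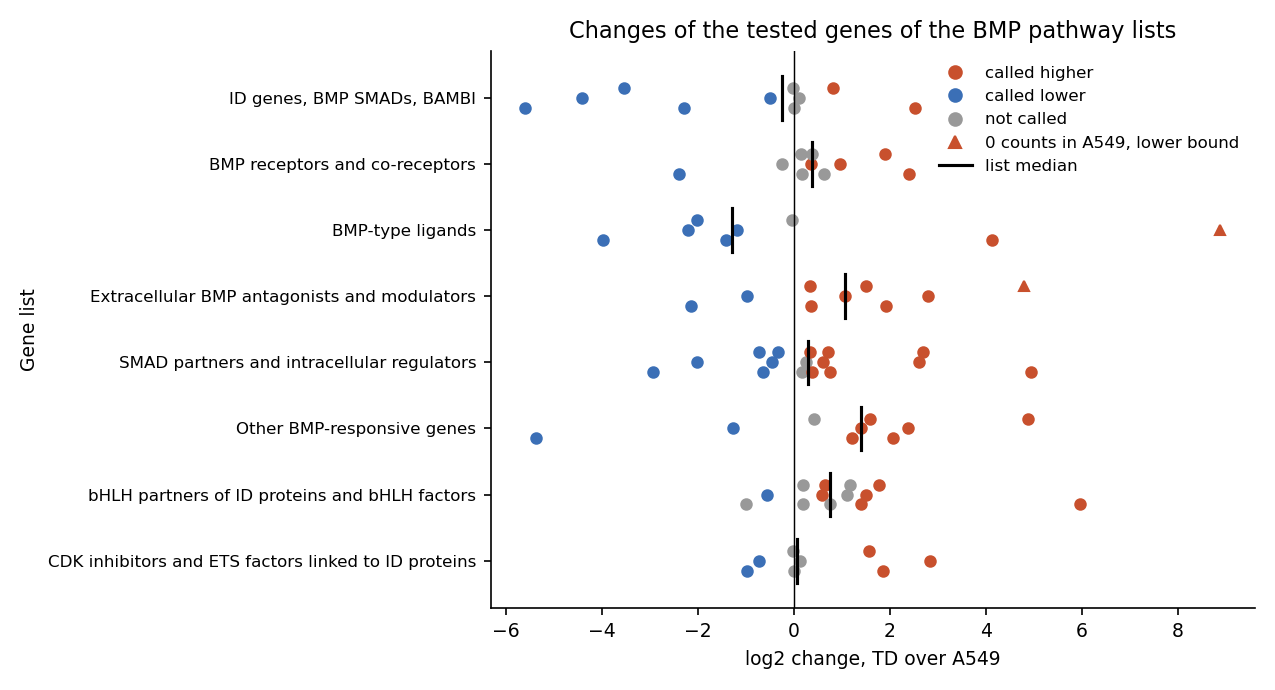
Log2 change (TD over A549) of each tested gene in the BMP pathway lists, coloured by call, with the median of a list as a black bar. Triangles mark GDF6 and NOG at their lower bounds, since both had 0 counts in A549. The medians run from -1.29 for the ligands to 1.41 for the other BMP-responsive genes.

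Among the E proteins, the bHLH factors that ID proteins bind, TCF4 changed most. TCF4 (E2-2) rose from 0.399 ± 0.0558 to 25.2 ± 0.490 CPM, and its log2 change was 5.97 (adjusted p = 3.76e-05). TCF3 (E2A) went from 51.4 ± 1.97 to 80.9 ± 12.3 CPM (log2 change 0.66, adjusted p = 0.0127), and the call went when A549 replicate 1 (0.0695) or 2 (0.0798) was left out. TCF12 (HEB), at 83.8 ± 2.37 and 95.7 ± 6.40 CPM, did not pass the test (adjusted p = 0.127) but did without TD replicate 1 (0.0209) and by DESeq2 (0.0464). BHLHE40 rose from 112 ± 0.106 to 380.1 ± 2.22 CPM, and HES1, a Notch target, fell from 15.4 ± 0.413 to 10.4 ± 0.525 CPM, which was not called without A549 replicate 2 (0.0521). Of 13 tested bHLH genes, 6 rose and 1 fell (median log2 change 0.75). With pseudogenes left out, 8 were called higher and 2 lower, in a setting that called 60.1% of all genes. In edgeR's test against a 1.5-fold change, 3 were called higher and 0 lower, with 21.6% of all genes called.

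Genes of the cell cycle and ETS families that ID proteins are linked to were also divided. CDKN1A, the CDK inhibitor p21 that E proteins activate, did not pass the test at 109 ± 1.97 CPM in A549 and 119 ± 13.4 CPM in TD (adjusted p = 0.373), but was called higher without TD replicate 1 (0.0407). CDKN1B (p27) fell from 81.1 ± 2.01 to 41.4 ± 0.705 CPM and CDKN2C (p18) from 31.5 ± 1.68 to 19.0 ± 2.50 CPM. The ETS factor ELK3 rose from 41.6 ± 1.35 to 297 ± 18.0 CPM, and ETS1, of the same family, reached 71.5 ± 0.377 CPM from 19.7 ± 0.833. Of 8 tested genes, 3 rose and 2 fell (median log2 change 0.06). CDKN2A had 0 counts in all 4 libraries.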

How the data were processed

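RNA was sequenced from 2 libraries of A549 and 2 of TD. The deposited files hold raw counts, 1 file per library, and FastQC 0.11.8, STAR 2.7.1a and HTSeq 0.11.2 are named with build hg19, per the submitters' processing notes. Libraries were made from polyadenylated RNA with a strand-specific kit, per the labels' protocols. On the annotation release, strand setting and filters, nothing is given in the sources used here. Reads assigned to no gene (6.12% to 7.79% outside genes, 2.34% to 2.56% ambiguous, 8.08% to 9.22% with several alignments) did not enter library sizes or tests. Symbols were found for 52338 identifiers, and gene types and exon lengths came from GENCODE 29.

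Counts of all genes were tested with edgeR 4.0.16 under R 4.3.3 (quasi-likelihood test, TMM scaling, minimum count 10, Benjamini-Hochberg adjustment over 17785 genes). The code was run on simulated counts, set to vary alike in both groups and by less than the 20.1% fitted here. That run checks the code and not the error rate of the test on these data. Standard errors were derived from the log2 change and the F value of the fit. Gene lists were described by counts and medians only. Named genes were the 10 members, the 2 strongest called rises and falls of each list at 1 CPM or more in the higher group, a fixed set of receptors, SMADs, E proteins and CDKN1A, the antisense and pseudogene partners, and the 5 genes nearest ID1. A gene covered by this rule is not reported here. Other genes named, and ATTGGCTG, ATTGG and TATAA, were chosen after seeing the data. The members and lists were chosen with earlier results of these data known. Alternatives covered scaling, filtering, DESeq2 1.42.0, limma-voom (limma 3.58.1), a replicate block, pseudogenes, a 1.5-fold threshold and leaving out each library. With 1 library left out, the lone library of a group is assumed to vary like the other pair. Without an A549 library only the more variable TD pair sets the spread, so a call lost there need not rest on that library.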

Additional observations from a re-analysis of the deposited data

How the results depend on the processing

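Across 12 alternatives, 118 of 120 values of the 10 genes kept their direction where called and their side of the threshold. The 2 exceptions were SMAD6 without A549 replicate 1 and SMAD6 in edgeR's test against a 1.5-fold change (adjusted p = 1.00), and each left 4 genes called lower in place of 5. The number called higher stayed at 2. Leaving out each library gave 4 to 5 lower and 2 higher members, and 2114 to 5329 higher and 2236 to 6140 lower genes over the whole table. The 1.5-fold test called 1741 genes higher and 2109 lower, and it ended the calls of ACVR1, SMAD2, SMAD3, SMAD4, TCF3, HES1 and CDKN2C. With an A549 library left out, edgeR's coefficient of variation was 34.1% or 34.0%, against 20.1% with all libraries, 7.08% with either TD library left out and 7.90% with pseudogenes left out. Fitted changes of the uncalled genes ran from -0.17 to 0.11 (ID3), 0.03 to 0.19 (SMAD1) and -0.08 to 0.06 (BAMBI). The sign varied for ID3 and BAMBI. It stayed positive for SMAD1, but the alternatives reuse the same libraries and none called SMAD1. No direction can therefore be read for any of these genes. Nothing beyond the number is given as shared by same-numbered libraries, and the correlation of their deviations across genes was -0.08. The fit with the replicate number as a block called 2 members higher and 5 lower, 2964 genes higher and 2847 lower over the table, and 4 antagonists higher in place of 7, and it lost ACVR1 (adjusted p = 0.0564) and SMAD4 (0.0587). Library totals moved the fold of summed SMAD1, SMAD5 and SMAD9 from 1.60 to 1.52. Depth limits SMAD9 and ID4 in TD, at 5 to 10 counts per library.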
